A study of Mus musculus with 12 samples.

Results

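The genes described here are the interleukins and interleukin receptors outside the IL-6 family, read in hyperplastic mammary glands of mice. They were taken as the protein-coding genes whose symbol starts with Il and a number, without the IL-6 and IL-11 genes and their receptor chains and without both IL-13 receptor alpha chains. The rule found 77 gene entries among 54532 in the table of all genes, and it used no measured level. By kind they are 36 receptor chains, 35 cytokines, 5 antagonists or decoy receptors and 1 enzyme, Il4i1, an amino acid oxidase named for its induction by IL-4. Il11ra2 is listed 3 times, once on chromosome 4 and once on each of 2 unplaced scaffolds, and since these copies and the excluded Il11ra1 are near-identical, the split of reads among them is uncertain.

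All 12 libraries came from female FVB/N mice of the MIC model, in which doxycycline switches on the polyoma middle T oncogene and Cre recombinase in the mammary epithelium. Every mouse, the controls included, carried the MIC alleles and was given doxycycline (2 mg/ml), with 2 wk written in each sample title, so no normal gland is included. The groups are MIC Stat3 ko, MIC Chi3l1 ko and MIC WT, each with 4 libraries, written below as Stat3 ko 1 to 4, Chi3l1 ko 1 to 4 and WT 1 to 4. The deleted alleles, the ages and whether libraries came from separate animals are not given in the sources used here. The p-values therefore measure only the spread between these libraries, which may be technical. Cre acts in the epithelium of this model, and whole gland RNA also holds fat, stroma and leukocytes. In such bulk RNA, a change in the number of cells of a type and a change in RNA per cell cannot be told apart.

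Interleukins are secreted proteins through which leukocytes, stroma and epithelium signal to each other. They act through paired receptor chains, several of which are shared: the common gamma chain serves IL-2, IL-4, IL-7, IL-9, IL-15 and IL-21, the common beta chain serves IL-3 and IL-5, and the accessory protein of the IL-1 receptor serves IL-1, IL-33 and IL-36. Many of these receptors signal through JAK kinases and STAT proteins, among them STAT3 for the IL-10 and IL-20 families, IL-21 and IL-23, whereas IL-1 and IL-17 receptors signal through adaptor proteins to NF-kB. In the mammary gland, epithelial cells carry receptors of the IL-17, IL-20 and IL-36 types, and leukocytes in the fat pad and in early lesions carry the gamma chain receptors.

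The libraries held 16217143 to 22607123 gene counts, and mitochondrially encoded genes took 1.0% to 4.79% of them, over 2% in Stat3 ko 1, Stat3 ko 2 and Chi3l1 ko 2. Stat3 averaged 15.8 ± 3.04 FPKM in Stat3 ko, 50.01 ± 2.67 in Chi3l1 ko and 48 ± 1.93 in WT (SD, n = 4 each). Chil1, the mouse symbol of Chi3l1, averaged 11.7 ± 5.33 FPKM in Stat3 ko, had 3 reads in all in Chi3l1 ko and averaged 151 ± 46.3 in WT. FPKM scale the fragments of a gene by its length and by the size of the library, so levels can be set side by side between genes. Epithelial markers summed to 1212 and 1391 FPKM in Stat3 ko 1 and 2 and to 2670.4 and 2958 in Stat3 ko 3 and 4, against 2179 to 2941 in Chi3l1 ko and 2368 to 3512 in WT. The Stat3 ko libraries also differed among themselves in lymphoid and fat markers, whose values are given below beside the genes.

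The gland held many more receptor transcripts than ligand transcripts. Summed over the 36 receptor chains, the level was 169 ± 55.8 FPKM in Stat3 ko, 110.1 ± 5.67 in Chi3l1 ko and 109 ± 15.2 in WT (SD, n = 4 each). Over the 35 cytokines it was 52.2 ± 1.86 FPKM in Stat3 ko, 28.4 ± 1.87 in Chi3l1 ko and 29.3 ± 2.48 in WT. The cytokine sums of the 4 Stat3 ko libraries, 50.6 to 54.8 FPKM, lay close together and above those of Chi3l1 ko (27.3 to 31.2) and WT (27.1 to 32.8), whereas the receptor sums of Stat3 ko spread from 125 to 248 FPKM. These sums are descriptions and carry no test.

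Of the 77 entries, 44 had reads in all 12 libraries and 34 reached 1 FPKM in at least 4 libraries, which was the condition for testing. Of these 34, 31 reached it on the Chi3l1 ko and WT libraries alone, and Il16, Il27ra and Il1r2 needed Stat3 ko libraries to reach it. The other 43 entries stayed below, 36 of them under 1 FPKM in every library. Of these, Il3, Il9, Il19, Il20, Il22, Il1rapl1 and 1 scaffold copy of Il11ra2 had 0 of 221807222 reads, and a count of 0 allows up to 3. A further 9 had 1 to 10 reads in all. Il17a, the cytokine that defines Th17 cells, had 1 read, in Chi3l1 ko 2, and Il17f had 5, all in Stat3 ko.

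In WT the highest levels belonged to Il17rc, a receptor chain for IL-17A and IL-17F, at 15.8 ± 1.58 FPKM and to Il18bp, a soluble inhibitor of IL-18, at 14.8 ± 2.14 (SD, n = 4 each). Il4ra, the chain that binds IL-4 and pairs with the gamma chain, followed at 11.8 ± 1.51 FPKM, then Il15ra, the high-affinity chain for IL-15, at 9.03 ± 2.9, and Il10rb, which serves IL-10, IL-22 and the lambda interferons, at 8.41 ± 0.939. Il17rc and Il18bp differed by less than either SD, as did Il15ra and Il10rb by less than that of Il15ra, whereas Il18bp stood above Il4ra by more than either SD. The cytokines were led by Il33, an alarmin of barrier and stromal cells, at 6.15 ± 2.29 FPKM, and by Il17d, a member of the IL-17 family, at 5.13 ± 0.618.

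**Figure D1:**
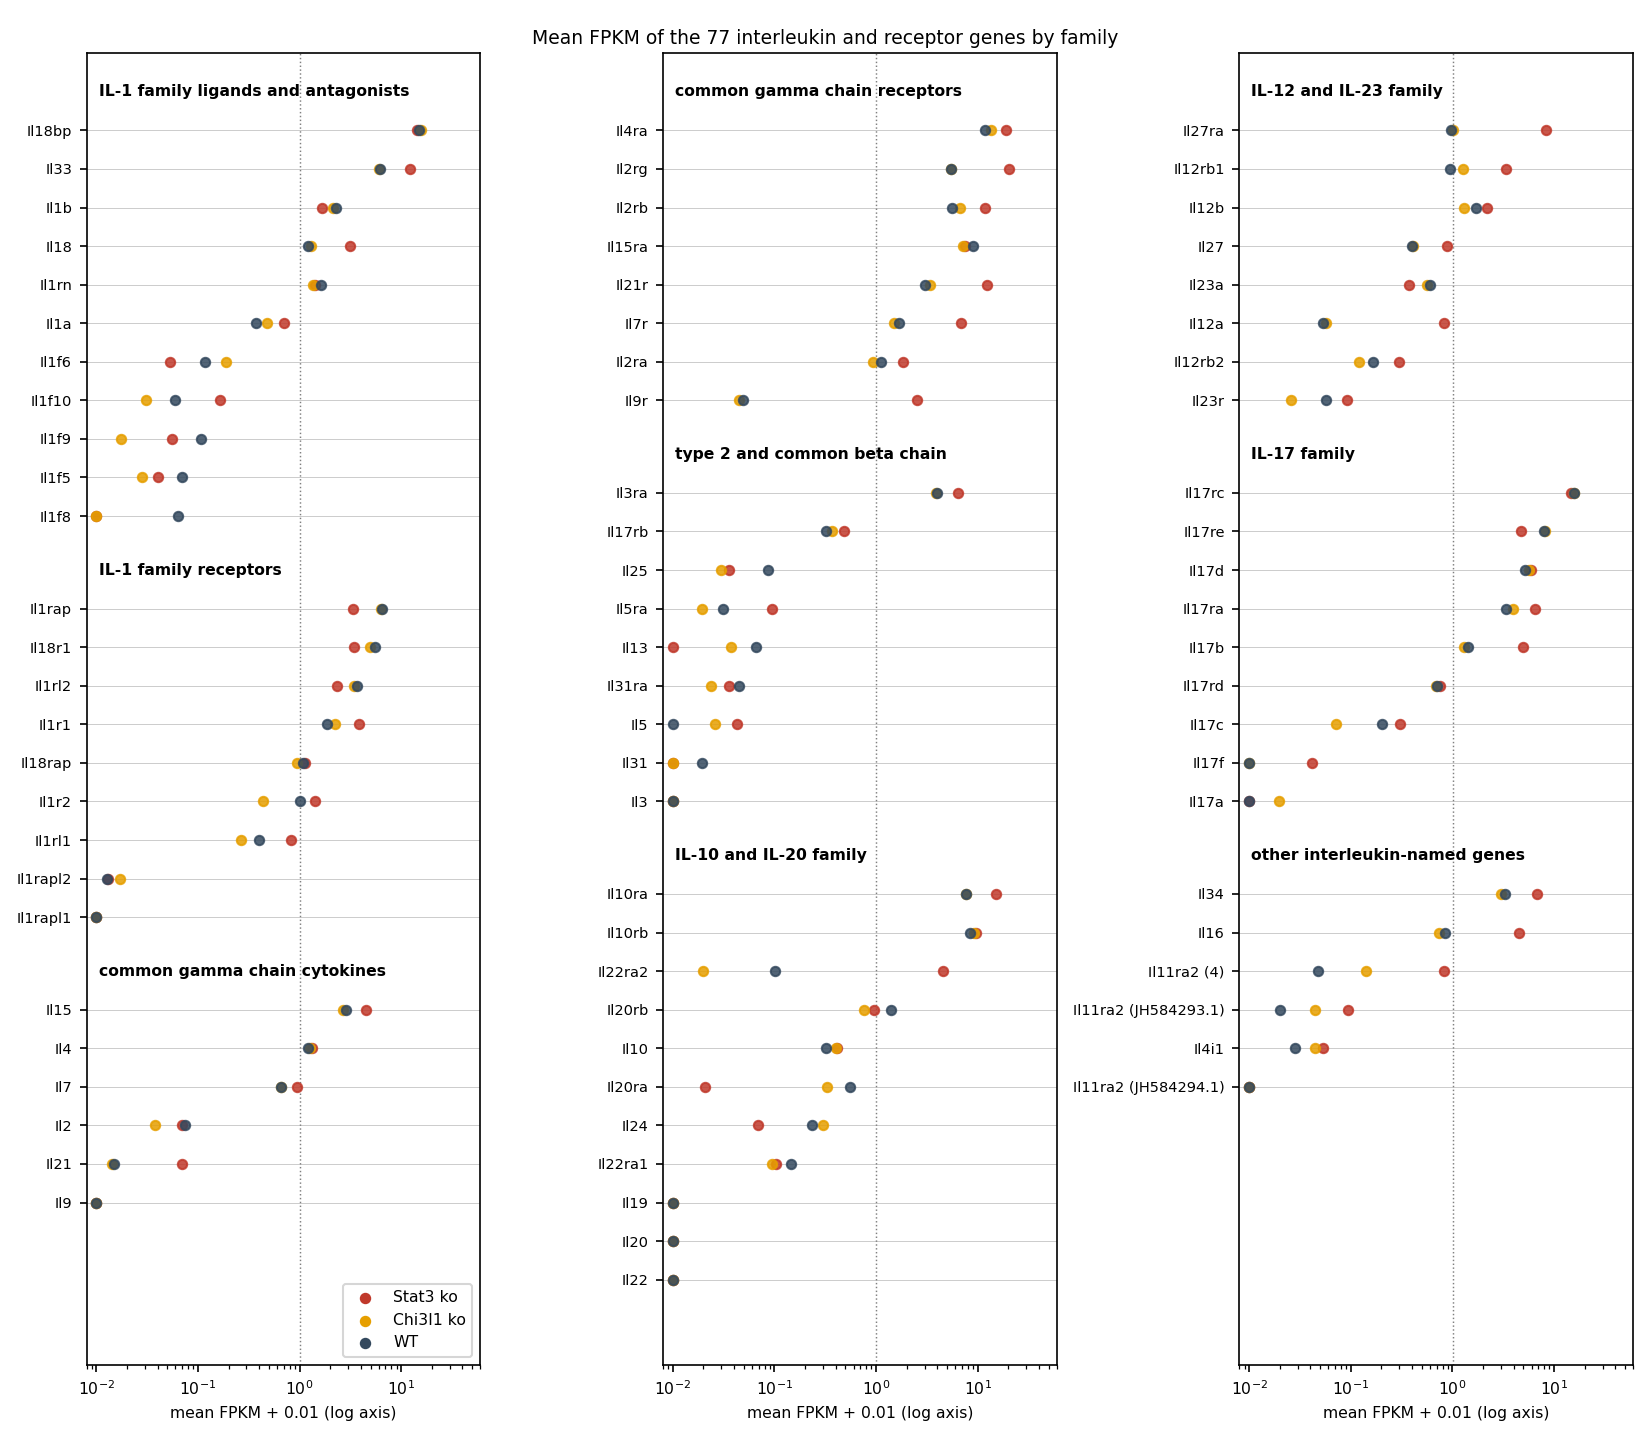
Mean FPKM plus 0.01 (log axis) of the 77 entries, grouped by family, with 1 dot each for Stat3 ko, Chi3l1 ko and WT (mean of 4 libraries) and a dotted line at 1 FPKM. Il3, Il9, Il19, Il20 and Il22 lie at the left edge, Il17rc and Il18bp among those at the right, and for Il21r, Il27ra and Il7r the Stat3 ko dot lies to the right of the other dots.

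The comparison of Stat3 ko with WT asks which interleukin genes differed where Stat3 was deleted. Among the 34 tested genes, 11 rose and 3 fell in Stat3 ko (limma on log2(FPKM + 1), Benjamini-Hochberg adjusted p under 0.05 over 13643 genes). That is 32.4% higher and 8.82% lower, where over all tested genes 5.61% were higher and 8.39% lower, 14.0% in either direction. The genes that rose were the receptor chains Il2rg, Il2rb, Il4ra, Il10ra, Il12rb1, Il3ra and Il1r1 and the cytokines Il15, Il16, Il18 and Il34, of which Il16 was tested only because of its Stat3 ko libraries. The genes that fell were the receptor chains Il1rap, Il1rl2 and Il17re. The median difference of the 34 was 0.45 on the log2(FPKM + 1) scale, against −0.02 over all genes. The FPKM ranges of both groups did not overlap for 12 genes, 10 of them higher (29.4%, against 9.67% of all genes) and 2 lower (5.88%, against 11.6%). Over the 31 genes that reached the level for testing without Stat3 ko libraries, 10 were called higher (32.3%, against 4.95% of the 12840 genes that did) and 3 lower (9.68%, against 8.92%). Among these 31 the ranges were apart for 8 as higher (25.8%, against 8.53%) and 2 as lower (6.45%, against 12.3%). Of the 34 genes, 25 had their highest level in a Stat3 ko library (73.5%, against 52.1% of all genes), 11 of them in Stat3 ko 2.

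These calls lay close to the threshold. The lowest adjusted p was 0.0129, and a limma fit of Stat3 ko and WT alone, without the Chi3l1 ko libraries in the shared spread, called none of the 34 and 506 of 13643 genes. On the recovered counts, edgeR called 18 of 44 entries (15 higher and 3 lower, where 18.0% of genes were called). DESeq2 called 26 of 77, not all of which had an adjusted p (22 higher and 4 lower, where 21.9% of genes were called). After quantile normalization limma called 7 as higher and 3 as lower, where 13.5% of all genes were called.

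**Figure D2:**
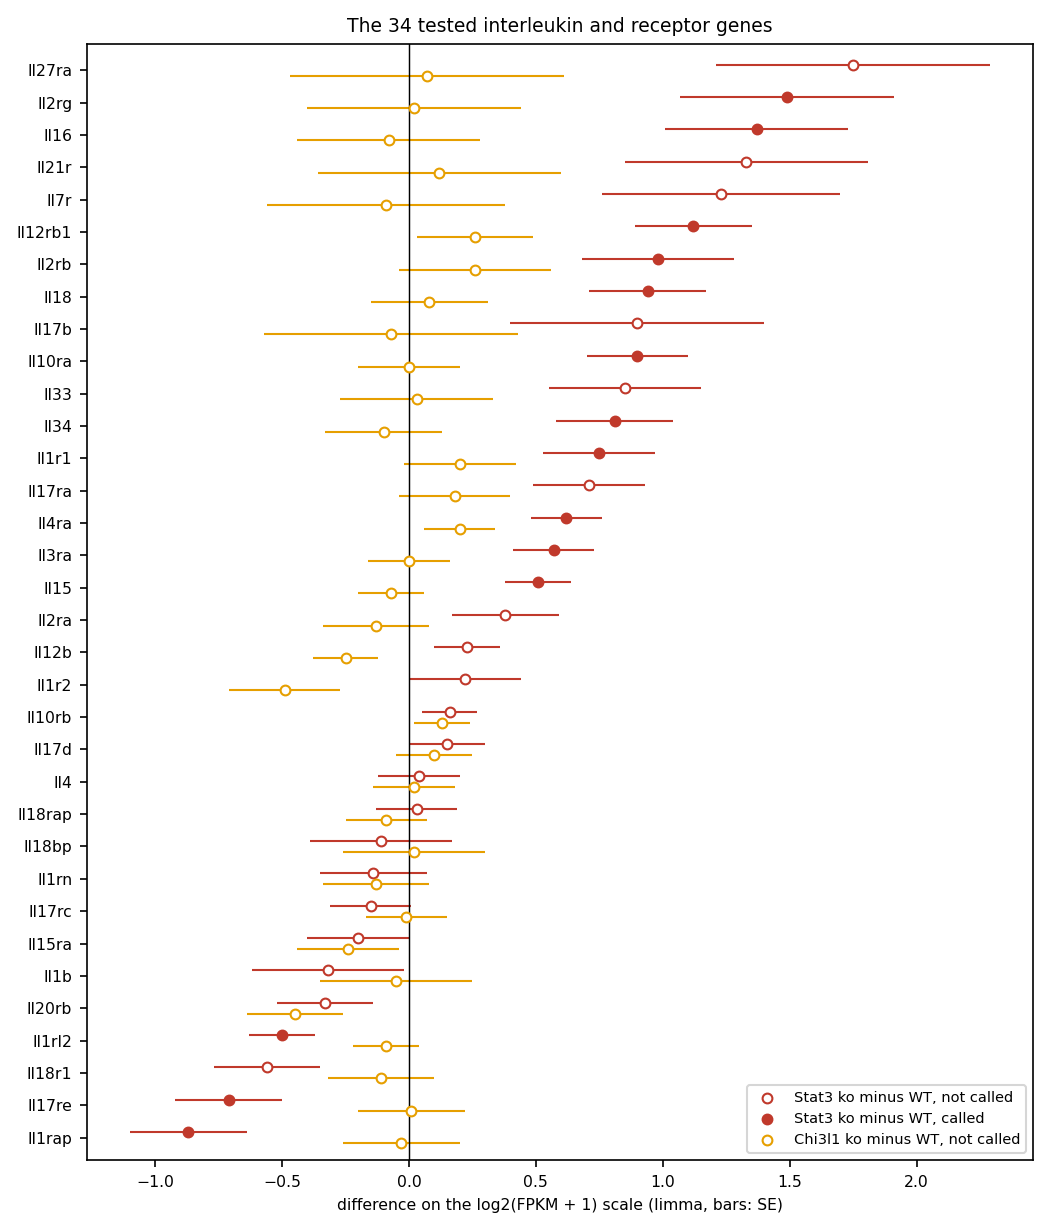
Difference on the log2(FPKM + 1) scale with its limma SE for the 34 tested genes, Stat3 ko minus WT (red) and Chi3l1 ko minus WT (orange), where filled dots passed an adjusted p of 0.05. Red dots run from −0.87 to 1.75, and orange dots from −0.49 to 0.26 with none filled.

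The genes that fell encode chains of receptors known from epithelium. Il1rap encodes the accessory chain shared by the receptors for IL-1, IL-33 and IL-36 (ENSMUSG00000022514, GRCm38 chromosome 16, 26581704 to 26730117, plus strand). It had 1.38, 2.79, 3.95 and 5.22 FPKM in Stat3 ko 1 to 4, 6.64, 5.83, 6.1 and 6.71 in Chi3l1 ko and 6.3, 5.9, 6.18 and 7.48 in WT 1 to 4. Every Stat3 ko library lay below every WT library. The difference was −0.87 ± 0.23 (SE, limma adjusted p = 0.0336), and the mean level was 51.6% of WT. The call ended without Stat3 ko 2, Chi3l1 ko 1 or 3 or any 1 of the WT libraries (adjusted p 0.05 to 0.0911).

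Il1rl2 encodes the ligand-binding chain of the IL-36 receptor, which pairs with the product of Il1rap (chromosome 1, 40324610 to 40367562, plus strand). It had 2.91, 1.98, 1.83 and 2.69 FPKM in Stat3 ko, 4.03, 3.01, 3.16 and 3.45 in Chi3l1 ko and 3.31, 3.5, 4.53 and 3.47 in WT. The ranges were again apart, and WT 3 stood above the other WT libraries. Il1rl2 fell by 0.50 ± 0.13 (SE, limma adjusted p = 0.0318), a call that ended without Stat3 ko 2 or 3 or any WT library (0.053 to 0.0844). The IL-36 cytokines themselves, listed as Il1f6, Il1f8 and Il1f9, had too few reads to compare, 3, 0 and 6 in Stat3 ko and 7, 5 and 12 in WT. Of the WT reads, all 5 of Il1f8 and 8 of Il1f9 came from WT 3. That library also had the highest keratinocyte marker sum, 172 FPKM. The sum was 12.7 to 82.2 in Stat3 ko, 82.9 to 92.2 in Chi3l1 ko and 38.7 to 153 in the other WT libraries. Krt5 and Krt14, which are not particular to keratinocytes, made up most of these sums. Krt1, Krt10 and Lor were highest in WT 3 and next in WT 1. Lor, for example, had 22.9 FPKM in WT 3, 12.1 in WT 1 and at most 0.452 in every other library. The part of the keratinocyte markers in the values of Il1rl2, Il1f8 and Il1f9 was not tested.

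Il17re encodes the receptor chain for IL-17C, an epithelial cytokine (chromosome 6, 113458484 to 113470758, plus strand, directly upstream of Il17rc). It had 3.29, 2.96, 5.13 and 7.66 FPKM in Stat3 ko, 9.1, 6.74, 8.83 and 7.61 in Chi3l1 ko and 7.92, 7.5, 8.65 and 7.8 in WT. Stat3 ko 1, 2 and 3 lay below all WT libraries and Stat3 ko 4 among them. Il17re fell by 0.71 ± 0.21 (SE, limma adjusted p = 0.0457), a call that held without Stat3 ko 3 or 4 and ended without any 1 of the other 10 libraries (0.0501 to 0.109). Its neighbour Il17rc had 14.6 ± 4.1 FPKM in Stat3 ko and 15.8 ± 1.58 in WT (SD, n = 4 each), a difference of −0.15 ± 0.16 (SE, limma adjusted p = 0.543).

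Il20ra, the chain that pairs with Il20rb to bind IL-19, IL-20 and IL-24, was below the level for testing and is named after its values were seen (chromosome 10, 19712570 to 19760053, plus strand). It had 2 reads in Stat3 ko, 65 in Chi3l1 ko and 102 in WT. The FPKM were 0, 0.0228, 0.0196 and 0 in Stat3 ko, 0.282, 0.317, 0.31 and 0.369 in Chi3l1 ko and 0.761, 0.313, 0.651 and 0.474 in WT, so Stat3 ko lay below both other groups in every library. Relative to the library totals, the ratio of Stat3 ko to WT was 0.02 (95% exact interval 0.00239 to 0.0742, counting error only). With edgeR's quasi-likelihood test on the recovered counts without a filter on low genes, the difference from WT was −5.35 on the log2 scale (adjusted p = 0.000621), where 6.99% of 31268 genes were called, 2.70% lower. DESeq2 gave −5.63 (adjusted p = 8.9e-06), and limma without a filter gave −0.61 on the log2(FPKM + 1) scale (adjusted p = 0.0034). The partner chain Il20rb had 0.948 ± 0.55 FPKM in Stat3 ko and 1.39 ± 0.277 in WT (SD, n = 4 each), which did not pass (limma adjusted p = 0.248). Of the ligands, Il24 had 6 reads in Stat3 ko and 23 in WT (edgeR adjusted p = 0.268).

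The epithelial marker sum was lowest in Stat3 ko 1 and 2, where Il1rap and Il17re were lowest too. Of the 10 epithelial markers 1 was called lower, 6 had an unadjusted limma p under 0.05 and 0 had a positive difference, with a median of −0.80. The part of epithelial content in these differences was not tested. In Stat3 ko 3 and 4, whose epithelial sums of 2670.4 and 2958 FPKM lay within the WT range, Il1rap and Il1rl2 were below every WT library and Il20ra had 1 and 0 reads, while Il17re in Stat3 ko 4, at 7.66 FPKM, was within its WT range of 7.5 to 8.65. Single epithelial markers varied in these libraries: Krt8, Krt18, Cdh1 and Cldn4 were within the WT range in both. Krt19, Cldn7, Esrp1 and Elf3 were below every WT library in both, and Epcam and Cldn3 in Stat3 ko 3 only. Cldn7, for example, had 93.1 and 111 FPKM, against 122 to 141 in WT. With the adipocyte marker level as a covariate the difference of Il1rap was −0.26 (limma adjusted p = 0.667), that of Il17re −0.26 (0.695) and that of Il1rl2 −0.56 (0.222).

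The promoters of these genes are shown because STAT3, the deleted factor, binds DNA. Each is a 300-base window around a RefSeq transcription start (GRCm38.p6, plus strand, 5′ to 3′), at chr16:26581455-26581754 for Il1rap, chr1:40324339-40324638 for Il1rl2, chr6:113458521-113458820 for Il17re and chr10:19712337-19712636 for Il20ra. One of the windows of Il18r1, at chr1:40465756-40466055, is shown beside them because it holds 2 matches. Capitals mark TTCNNNGAA, the palindrome known for STAT proteins, or TTCNNNNGAA, its spacing known for STAT6, searched on both strands, on which their fixed letters read the same. No 2 matches overlap in these windows.
Il1rap: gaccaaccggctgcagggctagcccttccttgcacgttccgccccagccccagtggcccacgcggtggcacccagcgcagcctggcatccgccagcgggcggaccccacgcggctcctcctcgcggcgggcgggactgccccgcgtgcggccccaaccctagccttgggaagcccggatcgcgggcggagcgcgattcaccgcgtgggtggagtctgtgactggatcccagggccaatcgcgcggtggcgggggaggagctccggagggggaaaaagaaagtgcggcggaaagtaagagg
Il1rl2: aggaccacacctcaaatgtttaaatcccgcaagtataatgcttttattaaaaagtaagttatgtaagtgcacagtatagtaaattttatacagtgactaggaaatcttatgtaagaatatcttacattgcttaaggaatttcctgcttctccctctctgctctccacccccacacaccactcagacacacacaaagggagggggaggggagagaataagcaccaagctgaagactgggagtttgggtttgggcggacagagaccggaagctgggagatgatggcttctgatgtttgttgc
Il17re: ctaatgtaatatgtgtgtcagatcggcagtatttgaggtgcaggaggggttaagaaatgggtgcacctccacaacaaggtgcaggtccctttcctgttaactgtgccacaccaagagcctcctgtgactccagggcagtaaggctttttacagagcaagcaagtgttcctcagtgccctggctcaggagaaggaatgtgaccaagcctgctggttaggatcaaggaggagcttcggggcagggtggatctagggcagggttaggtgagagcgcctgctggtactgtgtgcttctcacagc
Il20ra: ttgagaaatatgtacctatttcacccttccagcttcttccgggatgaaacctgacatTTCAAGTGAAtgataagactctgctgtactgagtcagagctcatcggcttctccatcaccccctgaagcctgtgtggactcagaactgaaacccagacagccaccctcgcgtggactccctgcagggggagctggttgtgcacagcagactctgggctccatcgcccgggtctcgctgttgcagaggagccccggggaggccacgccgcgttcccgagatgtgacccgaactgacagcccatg
Il18r1: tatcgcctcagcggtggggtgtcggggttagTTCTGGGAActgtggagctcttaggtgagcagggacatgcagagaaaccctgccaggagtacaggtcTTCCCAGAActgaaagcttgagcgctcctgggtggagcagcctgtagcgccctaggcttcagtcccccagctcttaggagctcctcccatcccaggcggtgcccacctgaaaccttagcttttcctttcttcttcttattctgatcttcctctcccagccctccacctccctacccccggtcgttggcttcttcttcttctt

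TTCNNNGAA was found in 8.3% of 32851 such windows of the table. None of the 3 genes called lower held it, and none of the 6 called higher that had a window. Of the 58 interleukin and receptor genes with a window, 10 held it in at least 1 window (17.2%), against 9.55% of 27025 genes. The window of Il20ra held 1 match to TTCNNNNGAA, which 6.95% of windows hold. A match is a string of letters and not a bound site, and these windows cover only the start of each gene.

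Il1rl2 lies in a cluster of 6 IL-1 receptor family genes that spans 477627 bases of chromosome 1 (40074079 to 40551705), all on the plus strand. These neighbours differed in opposite directions. Il1r1, the signalling receptor for IL-1, lies just upstream of Il1rl2. It had 5.52, 4.3, 2.97 and 2.5 FPKM in Stat3 ko, 2.1, 2.61, 1.81 and 2.26 in Chi3l1 ko and 1.52, 1.98, 2.86 and 1.04 in WT. Stat3 ko 4 lay below WT 3, so the ranges overlapped. Il1r1 rose by 0.75 ± 0.22 (SE, limma adjusted p = 0.0458), a call that held without Stat3 ko 3, Stat3 ko 4 or WT 3 and ended without any 1 of the other 9 libraries (0.0525 to 0.123).

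The remaining genes of the cluster did not pass in Stat3 ko against WT. Il18r1, the binding chain for IL-18, had 3.33, 4.79, 3.69 and 1.91 FPKM in Stat3 ko, 5.78, 4.23, 5.02 and 4.59 in Chi3l1 ko and 5.66, 6.99, 5.72 and 3.58 in WT, a difference of −0.56 ± 0.21 (SE, limma adjusted p = 0.0901). Its partner Il18rap differed by 0.03 ± 0.16 (adjusted p = 0.9). Il1r2, a decoy receptor for IL-1, had 1.41 ± 0.82 FPKM in Stat3 ko and 1.01 ± 0.34 in WT (SD, n = 4 each, limma adjusted p = 0.5). Il1rl1, the IL-33 receptor ST2, was below the level for testing and is named after its values were seen. It had 1.23, 0.827, 0.477 and 0.745 FPKM in Stat3 ko, 0.239, 0.289, 0.182 and 0.301 in Chi3l1 ko and 0.471, 0.428, 0.428 and 0.243 in WT, with the ranges just apart, and edgeR without a filter gave a log2 difference of 1.04 (adjusted p = 0.071), DESeq2 1.06 (0.0111).

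**Figure D3:**
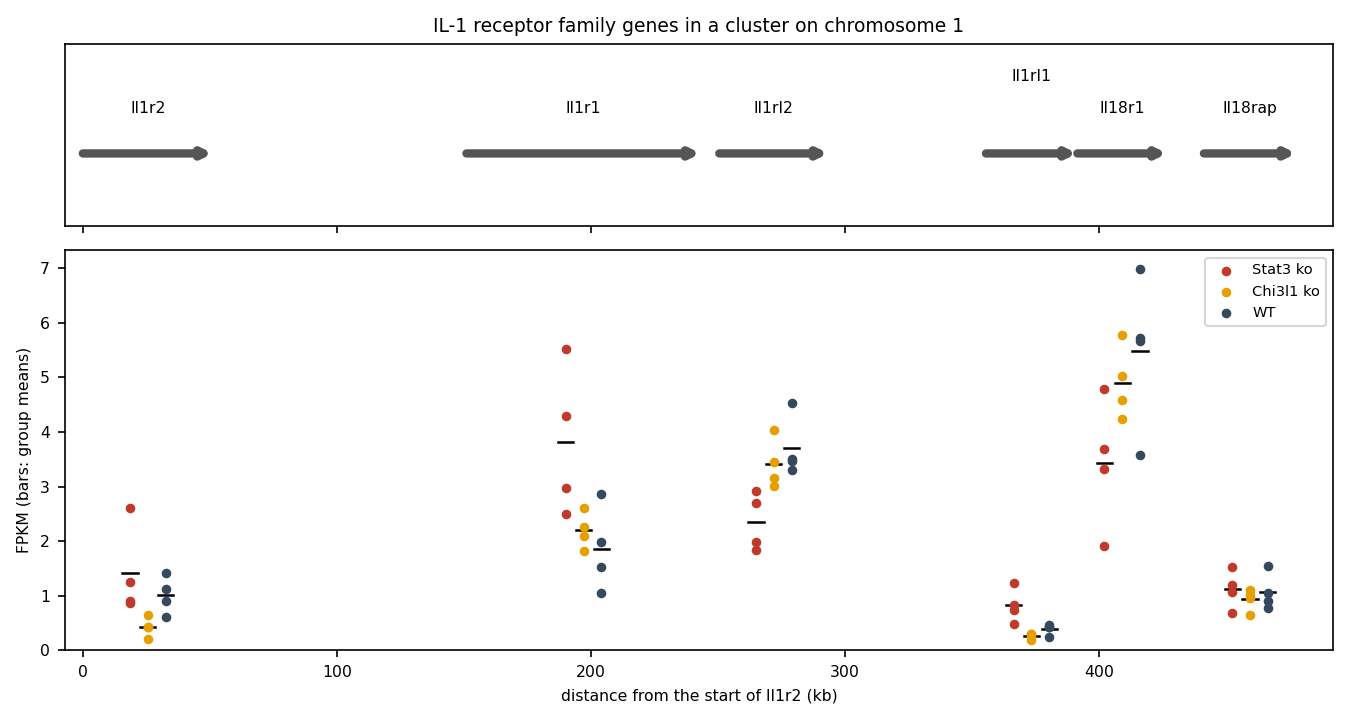
The 6 IL-1 receptor family genes of the chromosome 1 cluster by distance in kb from the start of Il1r2 (arrows: gene extent and direction) above their FPKM in each library, with bars at group means for Stat3 ko, Chi3l1 ko and WT. Il1r1 is higher in Stat3 ko, the adjacent Il1rl2 lower, and Il18rap level among the groups.

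Receptor chains made up 7 of the 11 rises, a share close to their 21 of the 34 tested genes. Il4ra (chromosome 7, 125552120 to 125579474, plus strand) had 20.5, 23.8, 15.1 and 15.7 FPKM in Stat3 ko, 13.9, 12.9, 14.3 and 13.4 in Chi3l1 ko and 11.5, 13.5, 12.2 and 9.87 in WT, with the ranges apart. It rose by 0.62 ± 0.14 (SE, limma adjusted p = 0.0186), and the call ended without WT 1 or WT 4 (0.0591 and 0.0581). Il10ra, the ligand-binding chain for the anti-inflammatory cytokine IL-10, had 11.6, 21.4, 13.6 and 14.1 FPKM in Stat3 ko, 6.24, 8.07, 9.73 and 6.42 in Chi3l1 ko and 6.37, 10.2, 7.78 and 6.16 in WT. Its ranges were apart too, it rose by 0.90 ± 0.20 (limma adjusted p = 0.0187), and the call ended without WT 1 or WT 4 (0.0653 and 0.0594). Il10 itself was below the level for testing, with 0.275, 0.465, 0.291 and 0.566 FPKM in Stat3 ko, 0.276, 0.38, 0.459 and 0.47 in Chi3l1 ko and 0.0854, 0.478, 0.362 and 0.319 in WT.

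Il12rb1 encodes the chain shared by the IL-12 and IL-23 receptors of T and NK cells (chromosome 8, 70808449 to 70821424, plus strand). It had 2.31, 2.55, 5.73 and 2.71 FPKM in Stat3 ko, 1.33, 1.23, 1.44 and 1.08 in Chi3l1 ko and 0.736, 1.69, 0.552 and 0.789 in WT. All Stat3 ko libraries lay above all WT ones, and Stat3 ko 3 stood apart at the top. Il12rb1 rose by 1.12 ± 0.23 (SE, limma adjusted p = 0.0129) and was the 1 gene of the 14 whose call held whichever of the 12 libraries was left out. Its partner chains Il12rb2 and Il23r were below the level for testing, with 82 and 15 reads in Stat3 ko and 47 and 9 in WT, and 40.04% of the exon bases of Il12rb2 overlap Serbp1. Among the ligands of this family, Il12b, the subunit shared by IL-12 and IL-23, had 2.18 ± 0.426 FPKM in Stat3 ko and 1.7 ± 0.252 in WT (SD, n = 4 each), a difference that did not pass (limma adjusted p = 0.225). Of 12 NK and innate lymphoid markers 10 were tested, 4 rose and 1, Gata3, fell. Their mean log2(FPKM + 1) level was 2.39, 2.26, 2.18 and 1.85 in Stat3 ko 1 to 4, against 1.43 to 1.64 in Chi3l1 ko and 1.33 to 1.82 in WT. Within Stat3 ko this level was highest in Stat3 ko 1 and lowest in Stat3 ko 4, where Il12rb1 had 2.31 and 2.71 FPKM. Their summed level of 66.0 to 81.4 FPKM in Stat3 ko overlapped the 58.5 to 82.0 of Chi3l1 ko and the 54.6 to 71.5 of WT. Of these sums Gata3 made up 16.9 to 39.5 FPKM in Stat3 ko, 39.6 to 55.8 in Chi3l1 ko and 40.3 to 47.3 in WT. Gata3 is not particular to lymphoid cells, so its fall and the overlap of these sums cannot be assigned to them. Of 10 dendritic cell markers 8 were tested and 4 rose, and they summed to 50.1 to 142 FPKM in Stat3 ko, against 26.3 to 32.7 in Chi3l1 ko and 26.6 to 41.7 in WT. The part of both marker sets in the differences of Il12rb1, Il2rb and Il15 was not tested.

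The gamma chain receptors had 7 tested members, of which 3 rose and none fell, where over all genes 5.61% were higher and 8.39% lower. Il2rg, the common gamma chain (X chromosome, 101264378 to 101268255, minus strand), had 8.14, 39.8, 25.2 and 8.76 FPKM in Stat3 ko, 4.25, 6.23, 6.26 and 4.86 in Chi3l1 ko and 4.34, 7.98, 4.52 and 4.75 in WT. Stat3 ko 2 and 3 were far above the rest, and Stat3 ko 1 and 4 only just above WT 2. Il2rg rose by 1.49 ± 0.42 (SE, limma adjusted p = 0.0396), a call that held without Stat3 ko 1, Stat3 ko 4, Chi3l1 ko 2 or WT 2 and ended without any 1 of the other 8 libraries (0.0568 to 0.11). The entry Gm20489 overlaps 30.5% of its exon bases on the same strand.

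Il2rb, the beta chain for IL-2 and IL-15 on T and NK cells, had 9.17, 16.8, 14.1 and 7.58 FPKM in Stat3 ko, 5.39, 5.97, 10.05 and 5.57 in Chi3l1 ko and 4.46, 9.58, 4.02 and 4.39 in WT. WT 2 lay above both Stat3 ko 1 and Stat3 ko 4, so the ranges overlapped. Il2rb rose by 0.98 ± 0.30 (SE, limma adjusted p = 0.0496), a call that held without Stat3 ko 4 or WT 2 and ended without any 1 of the other 10 libraries (0.0505 to 0.131). Il2ra, the inducible alpha chain of the IL-2 receptor, had 1.83 ± 0.955 FPKM in Stat3 ko and 1.1 ± 0.303 in WT (SD, n = 4 each), and Il15ra had 7.45 ± 0.973 and 9.03 ± 2.9, neither of which passed (limma adjusted p = 0.227 and 0.499).

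**Figure D4:**
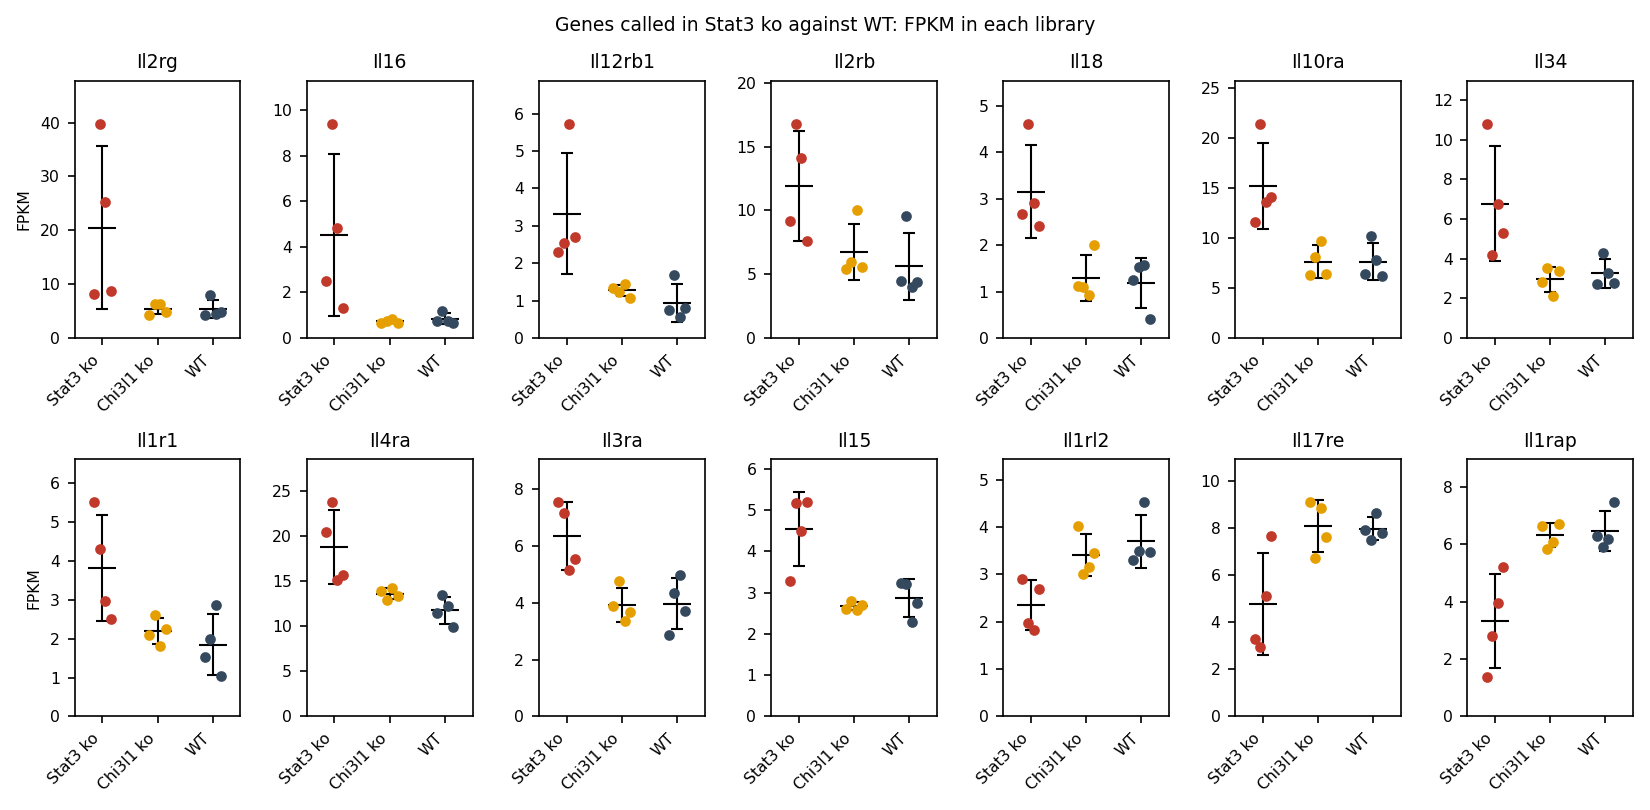
FPKM in each library of the 14 genes called in Stat3 ko against WT, 1 panel a gene with its own axis from 0, groups from left to right Stat3 ko, Chi3l1 ko and WT, with the mean and SD of 4 libraries. In Il2rg, Il16, Il12rb1, Il4ra and Il15 all Stat3 ko libraries lie above the WT libraries. In Il2rg and Il16 the Stat3 ko mean is carried by 2 high libraries, and in Il12rb1 1 Stat3 ko library stands apart at the top.

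A set of lymphocyte receptors was high in the same pair of libraries, Stat3 ko 2 and 3. Of these, Il21r and Il7r are named after their values were seen. Il21r, the IL-21 receptor of B and T cells, had 4.01, 29, 12.7 and 3.9 FPKM in Stat3 ko, 2.86, 3.06, 4.74 and 2.9 in Chi3l1 ko and 2.86, 4.03, 2.77 and 2.45 in WT. Il27ra, the IL-27 receptor, had 2.15, 21.5, 8.04 and 1.68 FPKM in Stat3 ko, 0.783, 0.996, 1.22 and 1.06 in Chi3l1 ko and 0.785, 1.56, 0.693 and 0.748 in WT. Il7r, the IL-7 receptor of T cells and of developing lymphocytes, had 2.34, 14.2, 9.03 and 1.78 FPKM in Stat3 ko, 1.1, 1.34, 1.19 and 2.34 in Chi3l1 ko and 1.56, 2.55, 1.11 and 1.41 in WT. For these 3 genes Stat3 ko 1 and 4 were near the WT libraries. The differences were 1.33 ± 0.48, 1.75 ± 0.54 and 1.23 ± 0.47 (SE) and did not pass (limma adjusted p = 0.0827, 0.0529 and 0.0937). All 3 passed on the recovered counts, with edgeR at 0.0334, 0.0185 and 0.0387 and with DESeq2 at 0.00154, 2.44e-05 and 0.00278 (adjusted p). They also passed in the authors' deposited table, with adjusted p of 0.00829, 0.000422 and 0.0107. Il27ra reached the level for testing only through Stat3 ko libraries, where it was high, so its test values are given as a description.

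Il9r and Il22ra2 gave the same picture below the level for testing and are named after their values were seen. Il9r, the IL-9 receptor, had 0.158, 6.93, 3.05 and 0.0107 FPKM in Stat3 ko, against 0.0211 to 0.0639 in WT. Il22ra2, a secreted decoy that binds IL-22 and is known from dendritic cells of lymphoid tissue, had 0.144, 11.6, 6.29 and 0.0424 FPKM in Stat3 ko, against 0 to 0.253 in WT. Summed over each group, Il9r had 950 reads in Stat3 ko, 14 in Chi3l1 ko and 15 in WT, and Il22ra2 had 862, 2 and 17. The Stat3 ko reads thus came almost wholly from libraries 2 and 3. edgeR without a filter gave log2 differences from WT of 5.96 for Il9r and 5.61 for Il22ra2 (adjusted p = 0.0194 and 0.0379), where 4.29% of 31268 genes were called higher. DESeq2 gave 7.67e-05 and 0.0155, and limma without a filter did not call them (0.212 and 0.22). Il12a, the IL-12 subunit p35, had 102 reads in Stat3 ko, 7 in Chi3l1 ko and 6 in WT and was highest in Stat3 ko 2 at 2.54 FPKM (edgeR adjusted p = 0.0915, DESeq2 0.0376).

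The same libraries carried the most lymphocyte markers. Of 10 B cell markers 4 were tested and 2 rose, and of 19 T cell markers 17 were tested and 4 rose. The B cell markers summed to 14.7, 497, 171 and 3.45 FPKM in Stat3 ko, against 1.81 to 2.96 in Chi3l1 ko and 1.33 to 4.88 in WT. The T cell markers summed to 96.5, 706, 374 and 56.5 FPKM in Stat3 ko, against 37.4 to 70.1 in Chi3l1 ko and 32.8 to 76.2 in WT. With the B cell marker level as a covariate none of the 34 genes was called, where 2.26% of all genes were: the difference was 0.40 for Il2rg, 0.06 for Il21r, 0.29 for Il27ra and 0.00 for Il7r, while it was 0.94 for Il12rb1, 1.05 for Il34 and −0.85 for Il1rap (limma adjusted p = 0.258, 0.871, 0.308, 0.998, 0.118, 0.0886 and 0.152). Without Stat3 ko 2 and 3, an alternative added after the data were seen, 3 of 33 tested genes were called, Il12rb1, Il4ra and Il34, where 7.44% of all genes were called.

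**Figure D5:**
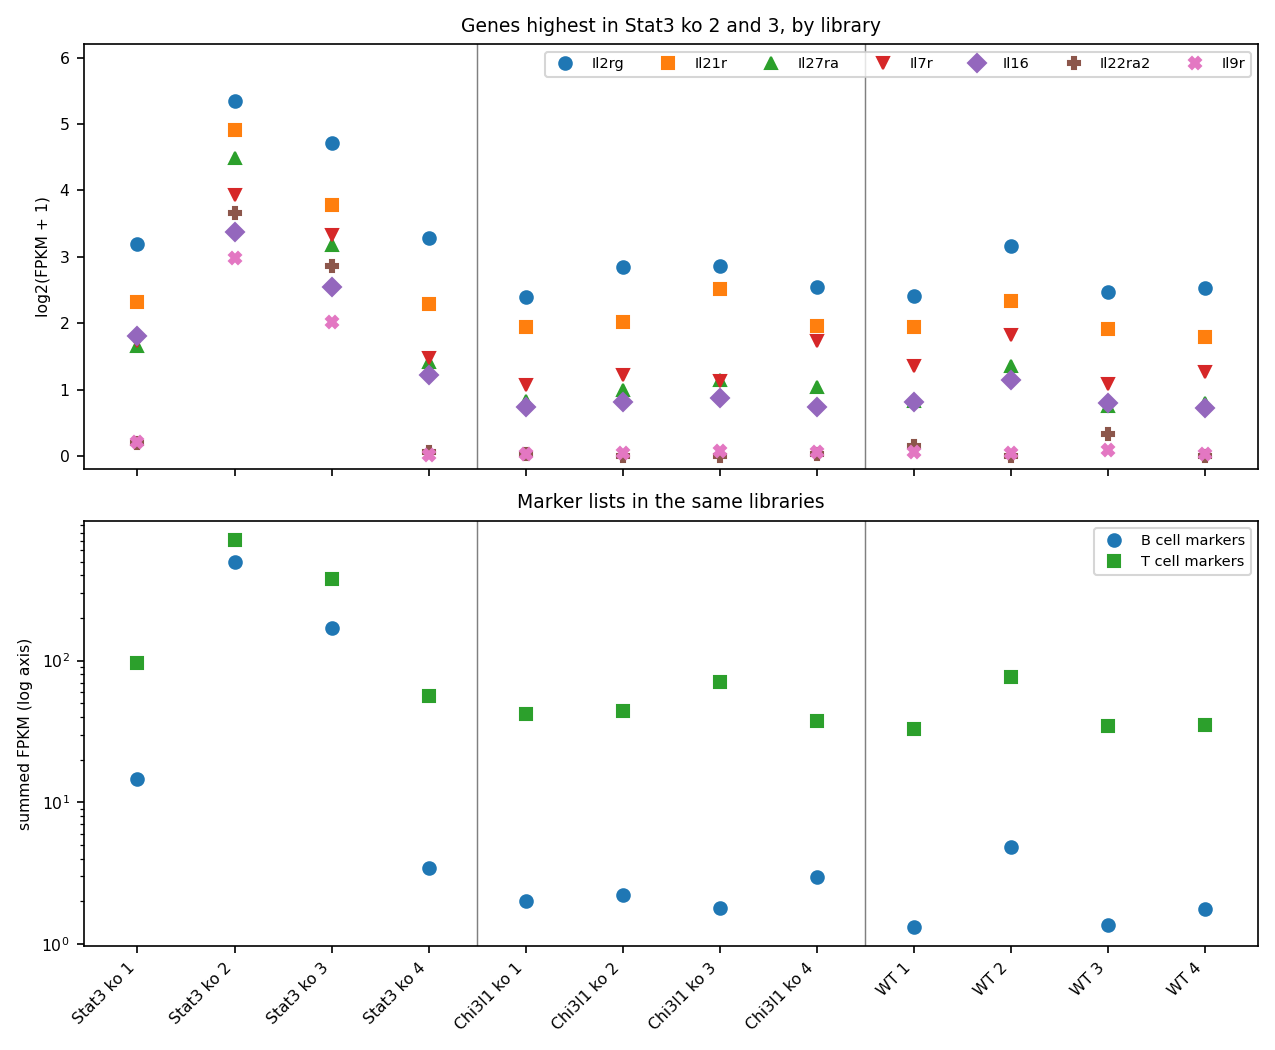
Upper panel: log2(FPKM + 1) of 7 genes in each of the 12 libraries, Stat3 ko at the left, then Chi3l1 ko and WT. The genes, Il2rg, Il21r, Il27ra, Il7r, Il16, Il22ra2 and Il9r, were picked for being highest in Stat3 ko 2 and 3. Lower panel: summed FPKM (log axis) of the B cell and T cell markers in the same libraries. Stat3 ko 2 and 3 are the highest libraries in both panels, in the upper panel by the choice of genes.

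Among the cytokines, 10 were tested, of which none fell and 4 rose, Il16 among them, where over all genes 5.61% were higher and 8.39% lower. Il15, which maintains NK and memory T cells (chromosome 8, 82331632 to 82403222, minus strand), had 3.29, 5.17, 4.49 and 5.2 FPKM in Stat3 ko, 2.6, 2.8, 2.59 and 2.7 in Chi3l1 ko and 3.24, 3.22, 2.28 and 2.75 in WT. The ranges were apart by a narrow gap. Il15 rose by 0.51 ± 0.13 (SE, limma adjusted p = 0.0275), a call that ended without Stat3 ko 2, WT 1, WT 3 or WT 4 (0.0555 to 0.0721). Il18, an inflammasome-processed cytokine (chromosome 9, 50554827 to 50581840, plus strand), had 2.68, 4.62, 2.91 and 2.41 FPKM in Stat3 ko, 1.13, 1.1, 0.924 and 2.01 in Chi3l1 ko and 1.25, 1.52, 1.58 and 0.406 in WT. The ranges were apart and WT 4 was lowest. Il18 rose by 0.94 ± 0.23 (SE, limma adjusted p = 0.0248), a call that ended without Stat3 ko 2, WT 1 or WT 4 (0.0594 to 0.0651). Its inhibitor Il18bp had 14.4 ± 5.88 FPKM in Stat3 ko and 14.8 ± 2.14 in WT (SD, n = 4 each, limma adjusted p = 0.808).

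Il34 is a ligand of the macrophage receptor CSF1R (chromosome 8, 110741829 to 110805924, minus strand). It had 10.8, 4.18, 6.76 and 5.27 FPKM in Stat3 ko, 2.83, 3.51, 2.12 and 3.37 in Chi3l1 ko and 2.74, 4.29, 3.25 and 2.75 in WT. Stat3 ko 1 was highest, and Stat3 ko 2 lay below WT 2. Il34 rose by 0.81 ± 0.23 (SE, limma adjusted p = 0.0404), a call that ended without Stat3 ko 1 or 3, Chi3l1 ko 1 or 4 or WT 1, 3 or 4 (0.0561 to 0.115). Macrophage markers summed to 1369 to 2221 FPKM in Stat3 ko, against 799 to 1113 in Chi3l1 ko and 681 to 1389 in WT, with 4 of 10 markers called higher, and their part in the rises of leukocyte receptors was not tested. Stat3 ko 1 was also the library with the highest adipocyte sum, 9326 FPKM against 910.5 to 1335 in the other Stat3 ko libraries, 209.6 to 1150.3 in Chi3l1 ko and 119.6 to 498 in WT, and 6 of 10 adipocyte markers rose. With the adipocyte level as a covariate Il34 differed by 0.22 (limma adjusted p = 0.735) and Il1r1 by 0.31 (0.678).

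Il16, a chemoattractant made by lymphocytes, had 2.51, 9.41, 4.82 and 1.33 FPKM in Stat3 ko, 0.67, 0.765, 0.83 and 0.67 in Chi3l1 ko and 0.761, 1.2, 0.743 and 0.658 in WT. All Stat3 ko libraries lay above WT, with Stat3 ko 2 and 3 highest as for the lymphocyte receptors. It reached the level for testing only through its Stat3 ko libraries and so had to differ, and its test supports nothing. The difference of 1.37 ± 0.36 (SE, limma adjusted p = 0.0311) is therefore given as a description, and the call ended without Stat3 ko 3, WT 1, WT 3 or WT 4 (0.0519 to 0.0854). Of its exon bases, 15.3% overlap Stard5 on the other strand. With the B cell level as a covariate it differed by 0.42 (0.142).

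The other cytokines did not pass. Il33 had 5.82, 11.3, 13.1 and 19.1 FPKM in Stat3 ko, 4.71, 7.35, 5.66 and 6.66 in Chi3l1 ko and 5.99, 4.93, 9.42 and 4.26 in WT, a difference of 0.85 ± 0.30 (SE, limma adjusted p = 0.0792). Stat3 ko 1 lay among the WT libraries and the other Stat3 ko libraries above them. Without the libraries with over 2% mitochondrial counts, Stat3 ko 1, Stat3 ko 2 and Chi3l1 ko 2, the difference was 1.29 (limma adjusted p = 0.0238), where 9.32% of all genes were called. This setting leaves out the Stat3 ko library that overlapped WT. The authors' adjusted p for Il33 was 0.0615. Il17b is named after its values were seen. Il17b had 11.4, 0.48, 5.99 and 2.14 FPKM in Stat3 ko, 1.16, 1.31, 1.09 and 1.62 in Chi3l1 ko and 0.97, 1.62, 1.29 and 1.81 in WT, with libraries of Stat3 ko both above and below all of WT (limma adjusted p = 0.229). Il1b, the inflammasome-processed form of IL-1 made by myeloid cells, had 0.409, 1.6, 1.97 and 2.72 FPKM in Stat3 ko, 2.26, 2.21, 2.73 and 1.2 in Chi3l1 ko and 1.14, 1.97, 2.76 and 3.12 in WT, with the groups overlapping (0.475). Il4, the type 2 cytokine, had 2.15, 1.17, 0.893 and 1.04 FPKM in Stat3 ko, 1.38, 0.995, 1.1 and 1.51 in Chi3l1 ko and 1.46, 1.17, 1.07 and 1.15 in WT, with the groups overlapping (0.884).

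In the common beta chain family, Il3ra, the IL-3 binding chain of mast cells, basophils and endothelium (chromosome 14, 14346275 to 14356011, plus strand), had 7.54, 7.16, 5.14 and 5.53 FPKM in Stat3 ko, 3.88, 4.76, 3.36 and 3.66 in Chi3l1 ko and 2.85, 4.34, 4.97 and 3.7 in WT. The ranges were apart by a narrow gap. It rose by 0.57 ± 0.16 (SE, limma adjusted p = 0.0362), a call that ended without Stat3 ko 1 or 2, Chi3l1 ko 1 or 4 or WT 1, 2 or 4 (0.0517 to 0.106). Mast cell and basophil markers summed to 39.9 to 112 FPKM in Stat3 ko, against 22.9 to 31.1 in Chi3l1 ko and 23.2 to 49.96 in WT, and endothelial markers to 43.8 to 163, 23.2 to 47.7 and 27.9 to 45.3 FPKM in the same order of groups, with 1 of 6 and 1 of 8 tested markers called higher. Their part in the rise of Il3ra was not tested. Among IL-17 receptors, Il17ra, the chain shared by the family, had 4.63, 11.2, 5.99 and 4.1 FPKM in Stat3 ko, 3.94, 3.27, 3.93 and 4.45 in Chi3l1 ko and 3.42, 3.64, 3.15 and 3.06 in WT, with the ranges apart but an adjusted p of 0.0556 (limma).

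The remaining genes of high level varied within groups. Il18bp had 7.65, 14.2, 13.8 and 22 FPKM in Stat3 ko, 12.1, 12.6, 24.4 and 13.2 in Chi3l1 ko and 14.7, 14.6, 12.3 and 17.6 in WT. Il17rc had 19.7, 9.7, 14.4 and 14.4 FPKM in Stat3 ko, 15.5, 16.1, 16.1 and 15 in Chi3l1 ko and 15.2, 16.6, 17.6 and 14 in WT. Il10rb had 11.5, 9.54, 7.88 and 9.31 FPKM in Stat3 ko, 9.26, 8.34, 9.58 and 9.9 in Chi3l1 ko and 7.42, 9.66, 8.45 and 8.1 in WT. The groups overlapped for each of these 3 genes. Il17rb, the receptor chain for IL-25, was below the level for testing, with 0.761, 0.493, 0.27 and 0.371 FPKM in Stat3 ko, 0.336, 0.305, 0.284 and 0.514 in Chi3l1 ko and 0.317, 0.277, 0.455 and 0.211 in WT.

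The comparison of Chi3l1 ko with WT asks whether these genes differed without the chitinase-like protein, and none of the 34 passed in limma, where 0.00733% of all genes were called. edgeR and DESeq2 called none of them either, where they called 0.00608% (edgeR), 0.00320% (edgeR without a filter) and 0.0349% (DESeq2) of all genes. No gene had ranges apart, against 1.12% of all genes higher and 1.36% lower. The differences ran from −0.49 to 0.26, with a median of −0.01, and 2 genes had an unadjusted p under 0.05. Il1r2, the IL-1 decoy, had 0.422, 0.64, 0.42 and 0.206 FPKM in Chi3l1 ko, against 0.909, 1.12, 1.41 and 0.603 in WT, where only Chi3l1 ko 2 reached above the lowest WT library (−0.49 ± 0.22 SE, adjusted p = 1 in limma). Il20rb had 0.66, 0.602, 0.679 and 1.05 FPKM in Chi3l1 ko, against 1.57, 0.989, 1.58 and 1.43 in WT, where only Chi3l1 ko 4 reached above the lowest WT library (−0.45 ± 0.19 SE, adjusted p = 1 in limma). The authors' deposited table of Chi3l1 ko against WT lists 3 of the genes, Il20rb at −0.90, Il1r2 at −1.24 and Il1rl1 at −0.63 on their log2 scale, with the authors' adjusted p of 0.145, 0.563 and 1. For Il1rap the difference between Chi3l1 ko and WT was −0.03 ± 0.23, for Il12rb1 0.26 ± 0.23 and for Il4ra 0.20 ± 0.14 (SE), and a p that misses the threshold does not show that the groups are alike.

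Stat3 ko was also compared with Chi3l1 ko. Of the 34 genes, 9 were higher in Stat3 ko (26.5%, against 5.19% of all genes) and 2 lower (5.88%, against 8.0%), where 13.2% of all genes were called. The ranges were apart for 12 genes higher (35.3%, against 6.85% of all genes) and 2 lower (5.88%, against 10.2%). edgeR called 14 of 44 entries, where 15.1% of genes were called, and DESeq2 29 of 77, where 19.5% were called. The comparison shares the Stat3 ko libraries with the one against WT. Over the 31 genes that reached the level for testing without Stat3 ko libraries, 8 were called higher (25.8%, against 4.6% of such genes) and 2 lower (6.45%, against 8.5%). Among these 31 the ranges were apart for 9 as higher (29%, against 6.1%) and 2 as lower (6.45%, against 10.8%). The same 10 genes were called in both comparisons, namely Il10ra, Il2rg, Il34, Il3ra, Il15, Il18, Il16 and Il12rb1 as higher and Il17re and Il1rap as lower. Their differences from Chi3l1 ko were 0.89, 1.47, 0.91, 0.57, 0.58, 0.85, 1.45, 0.87, −0.72 and −0.84 in that order (limma adjusted p 0.017 to 0.0455). Il16 was tested only because of its Stat3 ko libraries, so its difference is a description here too. Each of these 10 calls ended without Chi3l1 ko 1. Those on Il10ra ended also without Chi3l1 ko 4, on Il15 without Chi3l1 ko 3, on Il34 and Il16 without Chi3l1 ko 3 or 4, and on Il12rb1 without any Chi3l1 ko library. The call on Il18 ended also without Stat3 ko 2, Chi3l1 ko 2 or 3 or WT 1, and that on Il3ra without Stat3 ko 1 or 2, Chi3l1 ko 3 or 4 or WT 4. The call on Il1rap ended without Stat3 ko 2 or any 1 of the Chi3l1 ko or WT libraries. Those on Il2rg and Il17re ended without any 1 of 10 libraries, and held without Stat3 ko 1 or 4 for Il2rg and without Stat3 ko 4 or Chi3l1 ko 2 for Il17re. The adjusted p after these losses was 0.0503 to 0.125.

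Il12b was called only against Chi3l1 ko. It had 1.68, 2.22, 2.71 and 2.1 FPKM in Stat3 ko, against 1.39, 1.2, 1.53 and 0.997 in Chi3l1 ko, with the ranges apart, and 1.37, 1.84, 1.66 and 1.94 in WT. The difference was 0.48 ± 0.13 (SE, limma adjusted p = 0.034), a call that ended without Stat3 ko 2 or 3, any Chi3l1 ko library or WT 3 (0.0519 to 0.0984). Il1r2 had 2.61, 0.87, 0.899 and 1.25 FPKM in Stat3 ko, against at most 0.64 in Chi3l1 ko, ranges that were apart (0.71 ± 0.22 SE, limma adjusted p = 0.0533). It reached the level for testing only with Stat3 ko libraries, so these values are a description. Il20ra, with 2 reads against 65, differed from Chi3l1 ko by −4.58 on the log2 scale (edgeR without a filter, adjusted p = 0.00216, where 5.79% of genes were called, 3.42% higher and 2.37% lower), and Il1rl1, with 410 reads against 147, by 1.68 (0.0121).

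Further genes of these pathways, listed as receptor partners, signal carriers and processing genes, were read in the same limma fit. Of 11 tested receptor partners and related cytokines, 4 rose and 1 fell in Stat3 ko against WT, where over all genes 5.61% were higher and 8.39% lower. Csf2rb encodes the common beta chain and Csf2rb2 a further beta chain, both of which pair with Il3ra. Csf2rb and Csf2rb2 averaged 10.2 ± 2.4 and 8.37 ± 2.77 FPKM in Stat3 ko, against 4.57 ± 1 and 3.5 ± 0.727 in WT (SD, n = 4 each). They rose by 1.01 ± 0.17 and 1.03 ± 0.19 (SE, limma adjusted p = 0.00488 and 0.00849). As paralogs they may share reads. Ebi3, a subunit of IL-27, rose by 0.74 ± 0.16 (0.0156), and Csf1r, the receptor for IL-34, by 0.65 ± 0.18 (0.0394). Ifnlr1, the lambda interferon receptor chain that pairs with Il10rb, fell by 0.79 ± 0.18 (0.0198).

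Of 21 genes that carry interleukin signals inside the cell, none rose and 1 fell in Stat3 ko against WT, near the shares over all genes (5.61% higher and 8.39% lower). Myd88, the adaptor of IL-1 and IL-18 receptors, averaged 17.2 ± 4.26 FPKM in Stat3 ko and 27.4 ± 2.76 in WT (SD, n = 4 each), and fell by 0.67 ± 0.16 (SE, limma adjusted p = 0.0214). Of 7 tested genes that process IL-1 and IL-18, Gsdmd, the pore through which they leave the cell, rose by 0.87 ± 0.24 (0.0367) and Aim2, a DNA-sensing inflammasome receptor, by 0.95 ± 0.28 (0.0465). Except for those on Csf2rb and Csf2rb2, each of these calls ended without WT 1 (0.0569 to 0.132), those on Myd88, Csf1r, Aim2 and Gsdmd without WT 4 (0.0648 to 0.107) and those on Ifnlr1, Csf1r, Aim2 and Gsdmd without WT 3 (0.0544 to 0.0818). The calls on Csf1r, Aim2 and Gsdmd also ended without other libraries. In Chi3l1 ko against WT none of these lists had a called gene.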

How the data were processed

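Total RNA of 12 samples was sequenced after NEBNext Ultra II library preparation, per the labels' protocols. Tools credited in the submitters' processing notes are STAR, HTSeq, Trimmomatic, limma and edgeR, with mm10 and GRCm38 as builds. Their roles and versions are not given in the sources used here. The authors deposited FPKM per gene, which were used as log2(FPKM + 1), so differences of low genes are understated. The authors also deposited comparison tables with raw counts, their log2 fold changes and their p-values for the genes listed there. FPKM times gene length gave whole counts for 100% of values (within 0.001 read), and 0 of 55832 deposited counts differed from the recovered ones. Library totals were 16217143 to 22607123 counts, and intervals cover counting error only.

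The test was limma 3.58.1 with an intensity trend in R 4.3.3, two-sided, on the 13643 genes that reached 1 FPKM in 4 or more of the 12 libraries, with the 3 groups in 1 fit and Benjamini-Hochberg adjustment over all tested genes at 0.05. Errors are SD over libraries or limma's moderated SE. edgeR 4.0.16 (quasi-likelihood, TMM) and DESeq2 1.42.0 were run on the recovered counts, which keep genes below the filter. Other alternatives were a pseudocount of 0.1, other filters and scalings, array weights, a fit of the compared groups alone, marker levels as covariates and leaving out libraries. The fits were tested on simulated data. Genes named with every value by rule were those called in any comparison and the 2 highest of each family list. The rule also took genes with ranges apart against WT and a mean of at least 1 FPKM in some group. Il1b, Il10, Il17a, Il4ra, Il33 and Il18 were named in any case. Other genes given by library, such as Il21r, Il7r, Il17b and Il1r2, are outside this rule and were named after their values were seen. The members and lists were chosen with earlier results of these data known. Promoter windows are from RefSeq (GRCm38.p6), where 58 of 75 entries on chromosomes matched by symbol. Coordinates are the deposited ones. Exon overlaps were computed with GENCODE M21, and whether counting used strand is not given in the sources used here, so reads of overlapping genes cannot be told apart. Tables were made with Python 3.11.15, pandas 2.3.3, numpy 2.4.6 and scipy 1.17.1, figures with matplotlib 3.10.9.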

Additional observations from a re-analysis of the deposited data

Results flagged for a closer look

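Of 111 groups of 4 FPKM values examined, 10 held a library set apart from the other 3 by more than Dixon's 95% critical value, and chance alone sets about 1 group in 20 apart. In Chi3l1 ko 3, Il18bp at 24.4 FPKM, Il2rb at 10.05 FPKM and Il21r at 4.74 FPKM were the highest of Chi3l1 ko. In WT 2, Il2rb at 9.58 FPKM, Il2rg at 7.98 FPKM and Il27ra at 1.56 FPKM were the highest of WT, and Il17d at 4.21 FPKM the lowest. T cell markers also summed highest within their groups in these libraries, to 70.1 FPKM in Chi3l1 ko 3 and 76.2 FPKM in WT 2, and their part in these values was not tested. Il12rb1 stood apart in Stat3 ko 3 at 5.73 FPKM, and its call against WT held without that library. Il1rl2 stood apart in WT 3 at 4.53 FPKM. Il17a stood apart in Chi3l1 ko 2 at 0.0386 FPKM, which is 1 read.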

How the results depend on the processing

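No paired analysis was possible because the labels carry no replicate numbers that tie libraries of different groups together. In Stat3 ko against WT, 14 of 34 genes were called as reported (14.0% of all genes). The number of entries tested changed with the setting, and the share of all genes called is in parentheses. The count was 4 of 70 without a filter (3.67%) and 6 of 13 at a mean of at least 5 FPKM (16.0%). With DESeq2 it was 26 of 77, not all of which had an adjusted p (21.9%). It was 5 of 32 without the libraries with over 2% mitochondrial counts (9.32%) and 3 of 33 without Stat3 ko 2 and 3 (7.44%). It was 0 of 34 with the compared groups alone (3.71%), the B cell covariate (2.26%) or the adipocyte covariate (1.02%). Leaving out 1 library gave 1 to 18 calls. In Stat3 ko against Chi3l1 ko, 11 genes were called as reported (13.2%). The count was 5 of 70 without a filter (3.58%), 4 of 13 at a mean of at least 5 FPKM (14.8%) and 29 of 77 with DESeq2 (19.5%). It was 5 of 32 without the high-mitochondrial libraries (11.5%) and 2 of 33 without Stat3 ko 2 and 3 (7.33%). Of 34 it was 1 with the adipocyte covariate (2.57%), and 0 with the compared groups alone (3.70%) or the B cell covariate (2.56%). Leaving out 1 library gave 0 to 17 calls. The cause of these shifts was not tested. Chi3l1 ko against WT had 0 calls under every alternative run. The remaining alternatives (pseudocount 0.1, a filter of 0.1 FPKM, median-of-ratios, quantile, array weights, edgeR) gave 10 to 18 calls in Stat3 ko against WT and 10 to 15 against Chi3l1 ko. They tested 34 entries, except for 52 with the filter of 0.1 FPKM and 44 with edgeR, or 70 with edgeR without a filter. Of 1896 recomputed single-gene differences, 304 lost the call, 39 gained one and 1553 kept their side of the threshold. No difference called in either fit changed sign, whereas 80 uncalled ones, of 12 genes, did, among them Il18bp in Stat3 ko against WT (0.56 with the adipocyte covariate). Low genes are limited by depth: 16 entries had at most 10 reads in all libraries.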
